A study of Mus musculus with 2 samples.

Results

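The copines are calcium-dependent phospholipid-binding proteins, and 8 of their genes, Cpne2, Cpne3, Cpne4, Cpne5, Cpne6, Cpne7, Cpne8 and Cpne9, were followed across the nuclei of the young mouse hippocampus. The members were taken by gene symbol from the 33696 genes of the files, which hold 9 symbols beginning with Cpne; the remaining one, Cpne1, is not a member. The members were chosen by their levels in these files, UMI counts within nuclear classes of each library and the differences between the libraries, so the values below describe the members and test nothing. There were 2 libraries of single nuclei from the hippocampus of mice at postnatal day 19. The Control library came from Cicflox/flox mice, which carry loxP sites in both copies of Cic, the gene of the transcriptional repressor Capicua, and for which no Cre is named. The library labelled Knockout came from littermates of genotype Emx1-Cre; Cicflox/flox, so both groups share the floxed alleles. For each library 3 mice, 2 males and 1 female, gave 1 hippocampus each, and the tissue was pooled. Emx1-Cre recombines in the progenitors of the dorsal telencephalon, which give rise to excitatory neurons, astrocytes and part of the oligodendrocytes, whereas inhibitory neurons and microglia arise elsewhere.

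Copines carry tandem C2 domains, which bind membranes when calcium rises, followed by a domain related to the A domain of von Willebrand factor, through which they are thought to recruit partner proteins. Cpne6, also called N-copine, is the best known of them in the hippocampus, where it is enriched in neurons and acts in dendritic spines. Cpne3 binds the receptor ErbB2, and Cpne4 has been studied in retinal ganglion cells. Cpne7 is known from tooth development, as a secreted factor that promotes odontoblast differentiation.

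The files held 25907 barcodes and 314453640 unique molecular identifiers (UMIs) in the Control and 23207 barcodes and 252995761 UMIs in the library labelled knockout. After filtering, 21865 and 20531 nuclei were used, with medians of 9790 and 8766 UMIs. The libraries shared 175 barcode sequences, 129 of them among the nuclei used. The nuclei formed 41 clusters, of which 6 stayed unnamed, with 5.06% and 6.41% of the nuclei. Of the classes named from marker genes, 18 had at least 100 nuclei in each library and were compared. The targeted gene did not mark the label: the Control held 2555 UMIs of Cic and the library labelled knockout 3016. In CA1-like nuclei Cic was at 6.68 and 12.2 CPM, its count per 1000000 UMIs of a class in 1 library. Counts per gene cannot show whether the floxed part of the Cic transcript is missing, so every direction below is stated for the library labelled knockout. Etv4, a gene that Capicua is known to repress, had 2.08 and 89.3 CPM in CA1-like nuclei.

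With 1 library in each group there is no test of any difference here, and passing a size is not a test. Parentheses hold 95% counting intervals, which are exact Poisson intervals for levels, exact conditional binomial intervals for ratios, and Clopper-Pearson intervals for shares. The spread between mice and between preparations is outside them. A class measured a gene when the higher library reached both 50 UMIs and 10 CPM, and a measured gene was past the size rule when the libraries differed by 2-fold or more. Levels are compared between classes for 1 gene and never between genes, since no transcript lengths were applied.

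**Figure D1:**
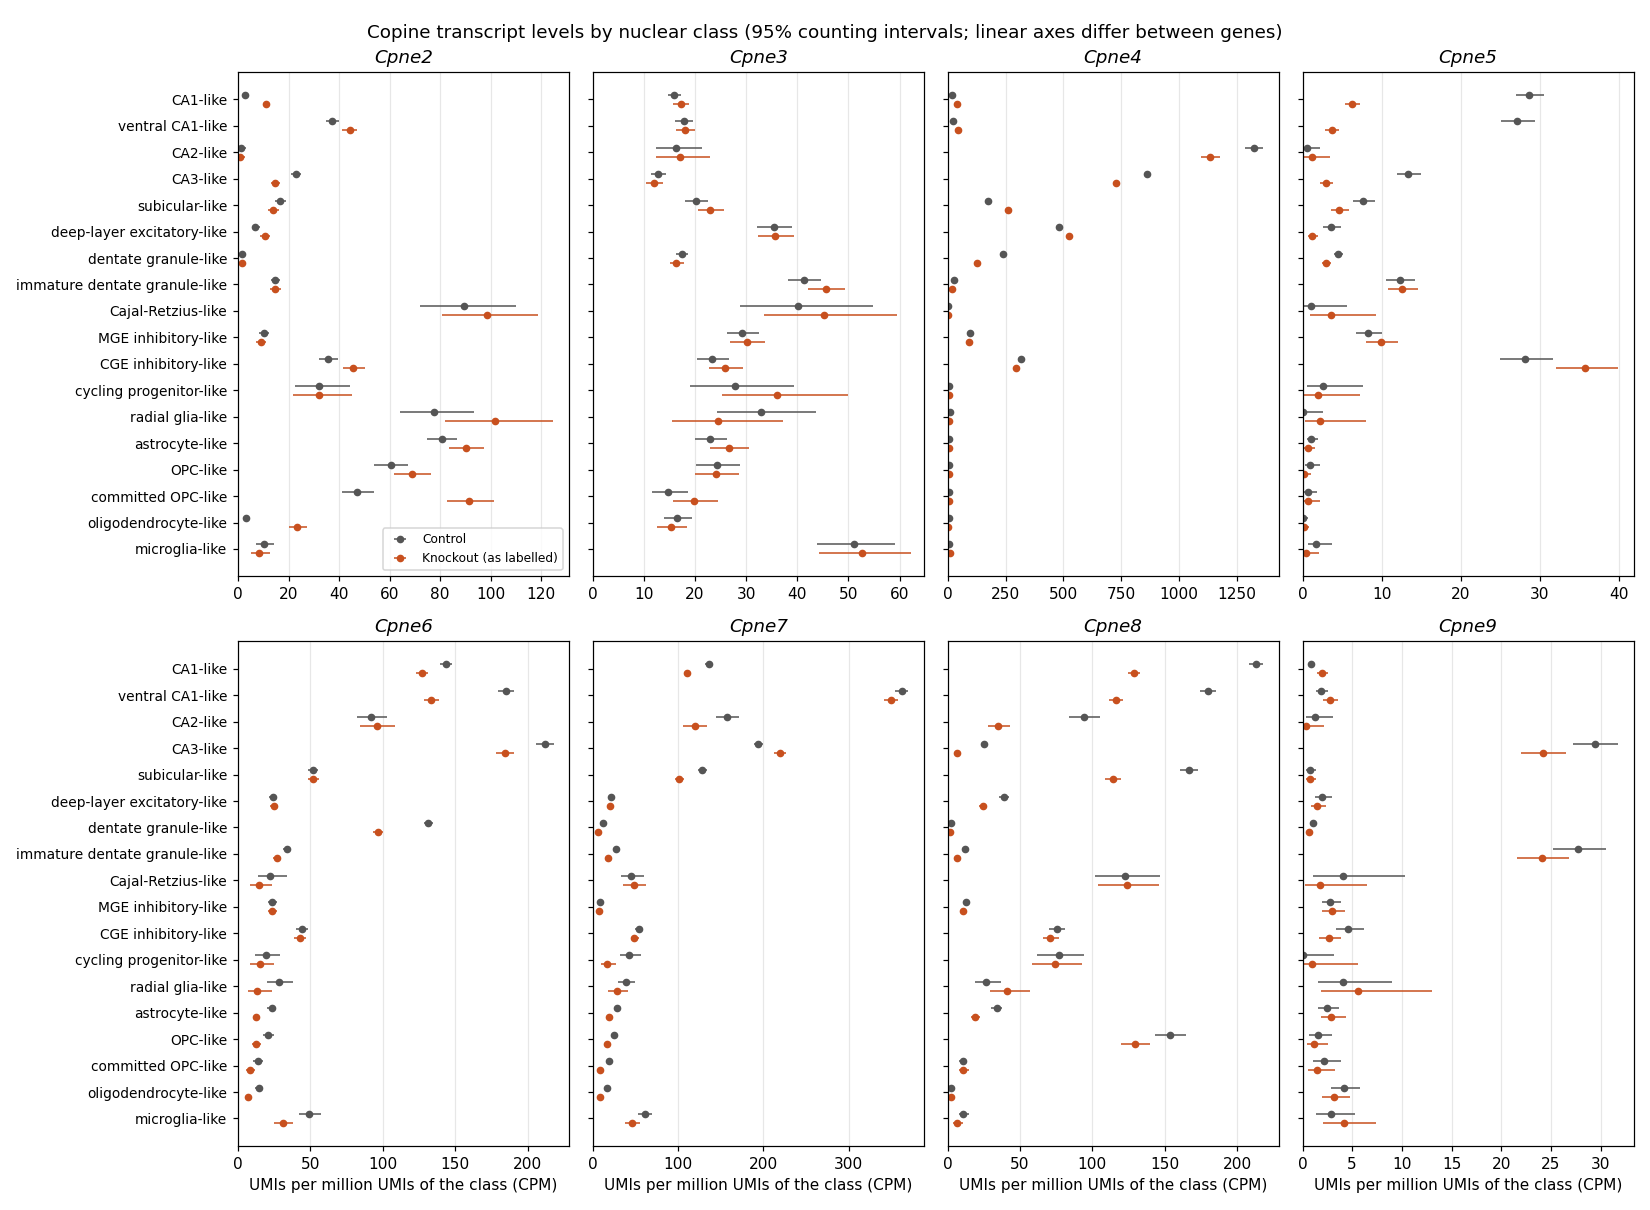
Level of each copine (x axis, CPM) in 18 nuclear classes (y axis) in the Control (grey) and the library labelled Knockout (orange), with 95% counting intervals and a linear axis of its own for each gene. Cpne4 peaks in CA2-like nuclei at 1321 and 1134 CPM, and Cpne5 stands near 28 CPM in CA1-like and ventral CA1-like Control nuclei and far below that in the other library.

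The copines differed in the classes where they were high, though some members shared their highest class. Cpne4 was highest in CA2-like nuclei, at 1321 CPM in the Control (1282 to 1361) and 1134 in the library labelled knockout (1093 to 1176). CA3-like nuclei followed at 859 and 727 CPM, and deep-layer excitatory-like nuclei at 479 and 522 CPM. The next places in the Control were CGE inhibitory-like nuclei, the class with markers of inhibitory neurons from the caudal ganglionic eminence, at 315 CPM, and dentate granule-like nuclei at 241 CPM. None of these neighbours overlapped in their counting intervals. In the library labelled knockout dentate granule-like nuclei, at 128 CPM, stood below subicular-like nuclei, at 258 CPM. Cpne4 itself was low in CA1-like nuclei, at 16.7 and 39.0 CPM.

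Cpne6 and Cpne7 were highest in pyramidal classes. Cpne6 stood at 212 CPM in Control CA3-like nuclei, 185 in ventral CA1-like, 144 in CA1-like nuclei, then 131 in dentate granule-like nuclei, with no overlap between neighbours. Of the compared classes of the library labelled knockout, CA3-like nuclei were again highest, at 184 CPM, while ventral CA1-like and CA1-like nuclei, at 133 and 127 CPM, overlapped. Mossy cell-like nuclei, a class too small to be compared, held more Cpne6 in both libraries, at 247 and 287 CPM. Cpne7 was led by ventral CA1-like nuclei, at 362 CPM in the Control against 350 CPM in the library labelled knockout, above CA3-like nuclei at 194 and 220 CPM. The highest Cpne7 level of any cluster with at least 100 nuclei was in unnamed cluster 18, at 506 and 522 CPM. That cluster was closest to the CA3 marker set and stayed unnamed because a marker of another set led it.

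Cpne8 was highest in CA1 and subicular classes, oligodendrocyte precursor-like nuclei and Cajal-Retzius-like nuclei. In the Control it stood at 213 CPM in CA1-like, 180 in ventral CA1-like, 167 in subicular-like and 153 in oligodendrocyte precursor-like nuclei. Cajal-Retzius-like nuclei, at 123 CPM, overlapped the last of these. In the library labelled knockout oligodendrocyte precursor-like nuclei, at 130 CPM, CA1-like nuclei, at 129 CPM, and Cajal-Retzius-like nuclei, at 124 CPM, overlapped at the top. Within CGE inhibitory-like nuclei Cpne8 lay in cluster 24, at 154 and 151 CPM, and less in cluster 16, at 29.5 and 26.96 CPM. Cpne4 had the opposite split there, at 488 and 447 CPM in cluster 16 and 16.5 and 20.6 CPM in cluster 24.

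Cpne5 reached 28.7 CPM in CA1-like, 28.1 in CGE inhibitory-like and 27.1 in ventral CA1-like Control nuclei, 3 levels whose intervals overlapped. In the library labelled knockout CGE inhibitory-like nuclei stood alone at the top, at 35.7 CPM, above immature dentate granule-like nuclei at 12.6 CPM. Cpne9 was found in CA3-like nuclei, at 29.4 and 24.2 CPM, and in immature dentate granule-like nuclei, at 27.8 and 24.1 CPM, and at 4.60 CPM or less in every other compared class of the Control. Mossy cell-like nuclei, with 72 and 112 nuclei too few to be compared, held 206 CPM of Cpne9 in the Control (187 to 228) and 213 in the library labelled knockout (195 to 232).

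Cpne2 and Cpne3 had their highest levels outside pyramidal neurons. Control levels of Cpne2 were 89.5 CPM in Cajal-Retzius-like, 80.6 in astrocyte-like and 77.6 in radial glia-like nuclei, which overlapped. Among pyramidal classes Cpne2 differed sharply, at 37.3 CPM in ventral CA1-like and 2.75 CPM in CA1-like Control nuclei. Cpne3 was the most even member, from 12.8 CPM in CA3-like to 51.1 CPM in microglia-like Control nuclei, with the intervals of all neighbours in the order overlapping. The microglia-like nuclei are shallow, with a median of 2154.5 UMIs in the Control, and 9.93% of them had a Cpne3 UMI. The share was 9.66% in astrocyte-like Control nuclei, at a median of 4601 UMIs. The part of free RNA in the microglia-like level was not tested.

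**Figure D2:**
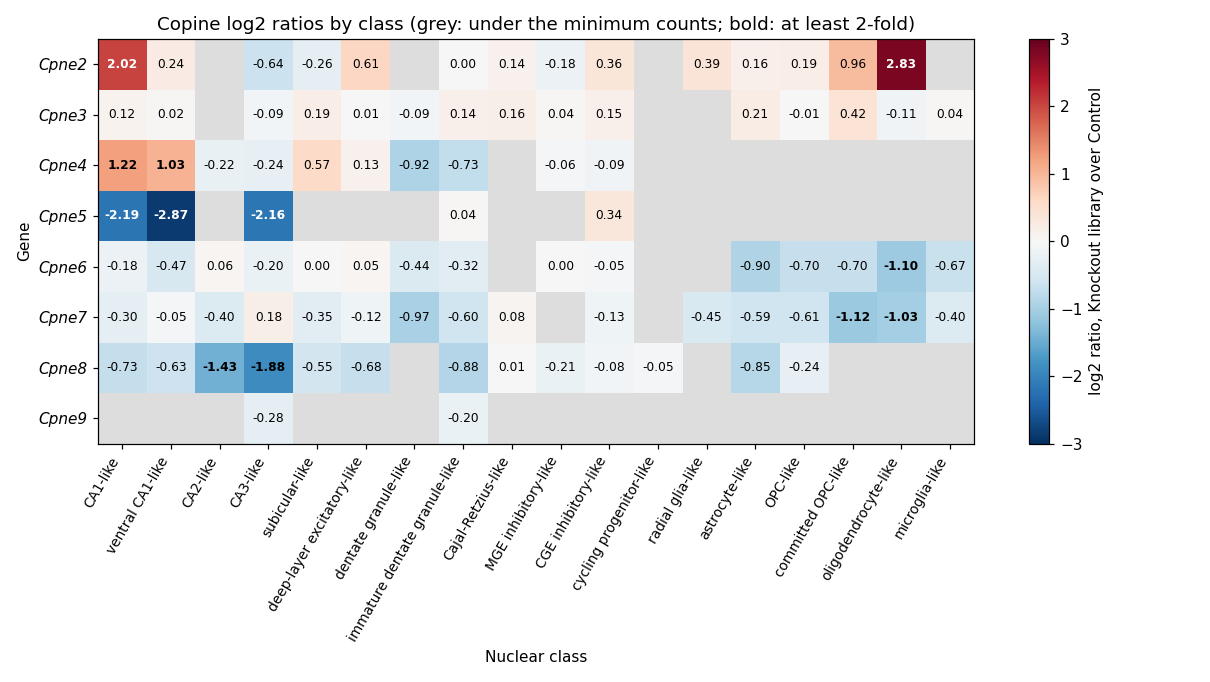
The log2 ratio of the library labelled Knockout over the Control for each copine (rows) in 18 classes (columns), red for higher and blue for lower, grey where the minimum counts were not reached and bold where the ratio is at least 2-fold. Cpne5 is below -2 in 3 pyramidal classes, Cpne2 is above 2 in CA1-like and oligodendrocyte-like nuclei, and Cpne3 has no bold cell.

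In CA1-like nuclei Cpne5 was lower in the library labelled knockout, and Cpne2 and Cpne4 were higher. These were the 3 members past the size rule among 7 measured, where 4.03% of 8253 measured genes passed it, 3.39% upward and 0.642% downward. The median log2 ratio of the 7 members was -0.18, against 0.09 for all measured genes. Cpne5 had 991 UMIs in 1783 Control nuclei and 182 UMIs in 1692 nuclei of the library labelled knockout, or 28.7 CPM (26.9 to 30.5) and 6.26 CPM (5.38 to 7.23). The levels did not overlap, and the log2 ratio was -2.19 (-2.43 to -1.97). Cpne5 was also past the rule in ventral CA1-like nuclei, where 637 and 73 UMIs gave 27.1 CPM (25.1 to 29.3) and 3.68 CPM (2.88 to 4.63), a log2 ratio of -2.87 (-3.25 to -2.53). In that class 2 of 7 measured members passed, against 2.91% of 8526 genes, 2.38% upward and 0.528% downward.

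The Cpne5 difference was also seen in how many nuclei had any UMI of it. Among CA1-like nuclei the share with a Cpne5 UMI was 33.6% in the Control against 7.62% in the library labelled knockout, at median depths of 18319 and 16396.5 UMIs. After thinning every nucleus to 2000 UMIs, the shares were 5.05% (4.08% to 6.17%) and 0.709% (0.367% to 1.24%), with 1 Control nucleus left out as too shallow. In ventral CA1-like nuclei the full-depth shares were 35.7% and 5.84%, and the thinned shares 4.68% and 1.23%. In microglia-like nuclei, which gauge RNA released from other cells, 0.329% and 0.0678% had a Cpne5 UMI at median depths of 2154.5 and 1719 UMIs. Thinned to the same depth, the microglia-like shares were 0.117% (0.00296% to 0.649%) and 0% (0% to 0.712%), with 664 and 959 nuclei left out. At that depth the pyramidal Control shares lie above the microglia-like share, while the intervals of the library labelled knockout overlap it in CA1-like and in ventral CA1-like nuclei. Over all UMIs the levels do not overlap: microglia-like nuclei of that library had Cpne5 at 0.376 CPM (0.00953 to 2.10), below its 6.26 CPM in CA1-like and 3.68 CPM in ventral CA1-like nuclei. The CA1-like level pools clusters that differ in Cpne5, as given below. At least 3 Cpne5 UMIs were found in 102 CA1-like Control nuclei and in 15 of the library labelled knockout, and in ventral CA1-like nuclei in 53 and 1.

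CA1-like nuclei comprised clusters 3 and 22, and the copines separated them. The name of cluster 22 is uncertain: 4 of 7 CA1 markers were raised, none was among its 10 leading genes, and their mean log2 fold was 0.524 against a minimum of 0.5. Cluster 22, led by genes that include Unc13c, Esr2 and Prlr, held 9.81% of CA1-like nuclei in the Control against 20.4% in the library labelled knockout. Cpne5 in cluster 3 had 844 and 41 UMIs, at 27.9 and 1.86 CPM, a log2 ratio of -3.89 (-4.40 to -3.46). In cluster 22 it had 147 and 141 UMIs, at 33.9 and 20.1 CPM, a log2 ratio of -0.75 (-1.10 to -0.41). Of the 182 Cpne5 UMIs in CA1-like nuclei of the library labelled knockout, 141 thus came from cluster 22. The 1.86 CPM of cluster 3 lies within the interval of microglia-like nuclei of that library, 0.00953 to 2.10 CPM. Cpne8 was far higher in cluster 3, at 243 and 167 CPM there against 5.08 and 6.71 CPM in cluster 22.

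Cpne4 in CA1-like nuclei had 578 and 1135 UMIs, at 16.7 CPM (15.4 to 18.1) and 39.0 CPM (36.8 to 41.3), a log2 ratio of 1.22 (1.08 to 1.37). Within the clusters its ratios were smaller, 0.85 (0.55 to 1.15) in cluster 3, at 5.52 and 9.96 CPM, and 0.46 (0.29 to 0.63) in cluster 22, at 94.9 and 131 CPM. Neither cluster is past 2-fold, nor is the class with genes past 2-fold left out of the clustering, at 0.72. Without cluster 22 the CA1-like class has 2 members past the size rule, Cpne2 and Cpne5. The share of all genes that passed without cluster 22 is not given. In ventral CA1-like nuclei, which are a single cluster, Cpne4 had 508 and 879 UMIs, at 21.6 and 44.3 CPM, a log2 ratio of 1.03 (0.87 to 1.19). With median-of-ratios or TMM scaling in place of total UMIs this value is under 2-fold, at 0.93 and 0.94. The former scaling moves the log2 ratios of all genes by -0.11 in CA1-like, -0.11 in ventral CA1-like and -0.12 in CA2-like nuclei.

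Cpne2 in CA1-like nuclei had 95 and 325 UMIs, at 2.75 CPM (2.22 to 3.36) and 11.2 CPM (9.99 to 12.5), a log2 ratio of 2.02 (1.69 to 2.37). At Leiden resolution 2, a finer clustering, the ratio was 0.91, under 2-fold, and with free RNA subtracted it was 2.74. Both clusters showed the higher level, at 2.51 and 11.9 CPM in cluster 3 and 4.39 and 8.86 CPM in cluster 22. Ventral CA1-like nuclei, where Cpne2 was already at 37.3 CPM in the Control, had 44.2 CPM in the library labelled knockout, so the log2 ratio was 0.24. Unnamed cluster 15, closest to the subicular set, had a pattern like that of CA1-like nuclei, with Cpne2 at 2.36 and 16.3 CPM, Cpne4 at 103 and 202 CPM, and Cpne5 at 22.8 and 10.6 CPM.

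Cpne8 in CA1-like nuclei was at 213 and 129 CPM, a log2 ratio of -0.73 (-0.78 to -0.67), and in ventral CA1-like nuclei at 180 and 116 CPM, a log2 ratio of -0.63 (-0.71 to -0.56). Both fell short of the size rule. The remaining CA1-like members differed less: Cpne6 by -0.18, Cpne7 by -0.30 and Cpne3 by 0.12 on the log2 scale, the last with an interval that includes 0. Cpne6 in ventral CA1-like nuclei was at 185 and 133 CPM, a log2 ratio of -0.47 (-0.54 to -0.40).

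**Figure D3:**
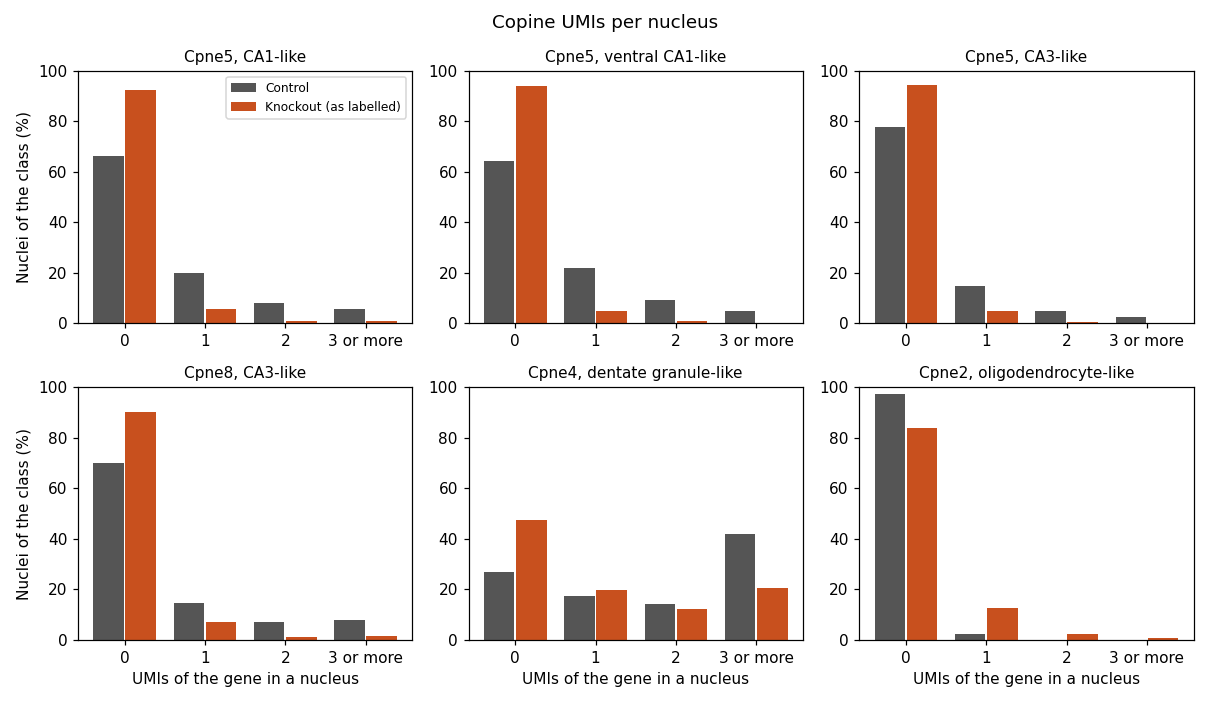
Share of nuclei (y axis, %) with 0, 1, 2 or at least 3 UMIs of a copine (x axis) in the Control (grey) and the library labelled Knockout (orange), for 6 pairs of gene and class. For Cpne5 in CA1-like nuclei the share with no UMI is 66.4% and 92.4%, and for Cpne2 in oligodendrocyte-like nuclei it is 97.5% and 84.0%.

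In CA3-like nuclei, the targets of the mossy fibers named in the title of the series, Cpne5 and Cpne8 were both lower in the library labelled knockout. All 8 members were measured there and these 2 passed the size rule, where 1.83% of 7998 genes did and 0.475% passed downward. The members had a median log2 ratio of -0.26, against 0.06 for all genes. Cpne5 had 308 and 54 UMIs, at 13.4 CPM (11.9 to 15.0) and 2.97 CPM (2.23 to 3.87), a log2 ratio of -2.16 (-2.62 to -1.75). Cpne8 had 574 and 123 UMIs, at 24.9 CPM (22.9 to 27.1) and 6.76 CPM (5.62 to 8.07), a log2 ratio of -1.88 (-2.18 to -1.60). A Cpne5 UMI was found in 22.2% and 5.67% of CA3-like nuclei, and a Cpne8 UMI in 29.8% and 9.85%, at median depths of 24274 and 21598 UMIs. The microglia-like share for Cpne8 was 2.24% and 1.22% at the lower depth of those nuclei. Thinned to 2000 UMIs, the CA3-like shares were 4.98% (3.67% to 6.59%) and 1.35% (0.678% to 2.41%), and the microglia-like shares 1.87% (1.07% to 3.02%) and 0.969% (0.315% to 2.25%). In the library labelled knockout Cpne8 was at 6.76 CPM in CA3-like and 6.77 CPM in microglia-like nuclei. Per nucleus it had 0.622 and 0.151 UMIs in CA3-like nuclei, in the order Control and library labelled knockout, against 0.025 and 0.0122 in microglia-like nuclei, and with free RNA subtracted the CA3-like log2 ratio was -1.94.

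Cpne8 was past the rule in CA2-like nuclei as well, as the only 1 of 4 measured members, where 3.43% of 6070 genes passed, 1.0% downward. It had 312 and 88 UMIs in 138 and 123 nuclei, at 94.3 CPM (84.1 to 105) and 34.8 CPM (27.9 to 42.8), a log2 ratio of -1.43 (-1.80 to -1.09). Its ratio was negative in the CA1-like, ventral CA1-like, CA2-like, CA3-like, subicular-like and deep-layer excitatory-like classes: beside those given, -0.55 in subicular-like and -0.68 in deep-layer excitatory-like nuclei. The Control levels of these classes ranged from 24.9 to 213 CPM. Cajal-Retzius-like nuclei, also glutamatergic, had 123 and 124 CPM of Cpne8, a log2 ratio of 0.01 (-0.35 to 0.38). The lower level was not confined to these neurons. Astrocyte-like nuclei had 33.8 and 18.8 CPM of Cpne8. Immature dentate granule-like nuclei had 11.7 and 6.34 CPM, near the 10.9 and 6.77 CPM of microglia-like nuclei. The part of free RNA in these granule values was not tested. Radial glia-like nuclei, at 26.8 and 41.3 CPM, and committed precursor-like nuclei, at 10.3 and 10.9 CPM, went the other way with overlapping intervals. In mossy cell-like nuclei, too few to be compared, Cpne8 had 59 and 16 UMIs, at 30.8 and 6.44 CPM.

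The CA3-like members of high level differed less. Cpne4 was at 859 and 727 CPM, a log2 ratio of -0.24 (-0.27 to -0.21), Cpne6 at 212 and 184 CPM (-0.20), and Cpne9 at 29.4 and 24.2 CPM (-0.28). Cpne7 went the other way, at 194 and 220 CPM, a log2 ratio of 0.18 (0.12 to 0.24). Cpne2 was at 22.9 and 14.7 CPM, a log2 ratio of -0.64 (-0.86 to -0.43), opposite in sign to its CA1-like value. After thinning to 2000 UMIs that Cpne2 ratio was 0.09.

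The promoters of the members past 2-fold show what precedes the genes that were lower in CA3-like nuclei, Cpne5 and Cpne8, and the gene that was higher in CA1-like and oligodendrocyte-like nuclei, Cpne2. The 250 bases before each start are given from RefSeq on GRCm38.p6, 5′ to 3′ on the strand of the gene, with CpG dinucleotides in capitals. Cpne5 lies at chr17:29237791-29238040 on the minus strand, Cpne8 at chr15:90679389-90679638 on the minus strand and Cpne2 at chr8:94532778-94533027 on the plus strand.
Cpne5: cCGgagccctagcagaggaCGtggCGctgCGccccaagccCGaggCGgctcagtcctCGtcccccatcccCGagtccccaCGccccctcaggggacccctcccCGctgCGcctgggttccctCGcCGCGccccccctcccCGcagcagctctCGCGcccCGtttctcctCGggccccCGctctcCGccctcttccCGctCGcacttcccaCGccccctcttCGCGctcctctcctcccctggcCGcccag
Cpne8: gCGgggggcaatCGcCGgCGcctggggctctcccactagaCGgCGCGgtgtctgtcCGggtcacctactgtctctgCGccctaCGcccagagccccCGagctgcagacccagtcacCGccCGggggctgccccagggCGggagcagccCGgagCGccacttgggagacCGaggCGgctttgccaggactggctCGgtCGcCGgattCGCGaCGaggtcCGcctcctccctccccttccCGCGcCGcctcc
Cpne2: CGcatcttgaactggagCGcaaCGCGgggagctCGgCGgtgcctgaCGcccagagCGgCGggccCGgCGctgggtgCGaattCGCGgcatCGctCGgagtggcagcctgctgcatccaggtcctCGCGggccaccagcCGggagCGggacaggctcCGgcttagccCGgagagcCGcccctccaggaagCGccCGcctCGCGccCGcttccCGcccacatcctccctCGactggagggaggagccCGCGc
These 3 windows are CpG-rich, with 27, 28 and 32 CpG dinucleotides and a GC content of 76.4%, 74.4% and 74.4%, in the order printed. The medians over all 32851 promoters of the table are 6 CpG dinucleotides and 52.4% GC. The octamers TGAATGAA and TGAATGGA, which Capicua is known to bind, and CCGGAAGT, a site of ETS factors such as Etv4, were searched on both strands of the same window, and none was found in these 3 genes or in the listed promoters of Cpne4 and Cpne9. Over all promoters 1.08%, 1.01% and 2.88% hold a match, in that order, so most promoters lack them. The windows of Cpne4, which has 2 starts in the table, hold 13 and 1 CpG dinucleotides, and that of Cpne9 holds 7.

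None of the measured genes nearest to the copines passed the size rule. Most of the nearest genes were under the minimum counts and could not pass it, so little can be read from this. In CA1-like nuclei Ppil1, next to Cpne5, was at 1.97 and 1.89 CPM, under the minimum, and BC004004, beyond it, at 15.0 and 17.3 CPM, a log2 ratio of 0.20. Kif21a, the second gene from Cpne8, had 222 and 256 CPM in CA3-like nuclei, a log2 ratio of 0.20. Gm36480 and Gm36618, directly beside Cpne8, had no more than 1 UMI in either library there. Beside Cpne2, Psme3ip1 had 12.2 and 13.2 CPM in CA1-like nuclei and 20.3 and 17.5 CPM in oligodendrocyte-like nuclei. The order of neighbours is that of a GRCm38 annotation, which also shows no other counted gene overlapping a member.

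In dentate granule-like nuclei, the cells of origin of the mossy fibers, Cpne4 was at 241 CPM (237 to 245) in the Control and 128 CPM (124 to 131) in the library labelled knockout. It had 12832 and 4335 UMIs in 4336 and 3045 nuclei, and a log2 ratio of -0.92 (-0.97 to -0.87), just short of 2-fold. None of the 4 measured members passed the size rule, where 3.43% of 8405 genes did, and their median log2 ratio was -0.68 against 0.01 for all genes. Cpne7, the member just outside the rule, was at 12.1 and 6.21 CPM (-0.97), or 0.149 and 0.0693 UMIs per nucleus against 0.139 and 0.0827 in microglia-like nuclei. Subtraction of free RNA left no value for Cpne7 in this class, while it gave -0.92 for Cpne4 and -0.41 for Cpne6. Beyond this, the part of free RNA in the Cpne7 ratio, which is counted in the member median, was not tested. Cpne6 was at 131 and 96.6 CPM, a log2 ratio of -0.44 (-0.50 to -0.38). Cpne3 was level, at 17.4 and 16.3 CPM. A Cpne4 UMI was found in 73.3% and 52.7% of the nuclei, at median depths of 11763.5 and 10735 UMIs, and in 1.45% and 1.42% of microglia-like nuclei.

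The granule class was split by library: 99.05% of its Control nuclei were in cluster 0 and 96.3% of its nuclei of the library labelled knockout in cluster 2. The 41 Control nuclei in cluster 2 had 63 Cpne4 UMIs, at 125 CPM, and the 112 nuclei of the library labelled knockout in cluster 0 had 118 UMIs, at 120 CPM. Cpne6 in the latter was at 130 CPM, against 132 CPM in the Control nuclei of cluster 0. Unnamed cluster 27, with 27 and 296 nuclei and closest to the granule set, had Cpne4 at 312 and 172 CPM. With it in the class, the ratios were -0.87 for Cpne4, -0.43 for Cpne6 and -0.73 for Cpne7.

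**Figure D4:**
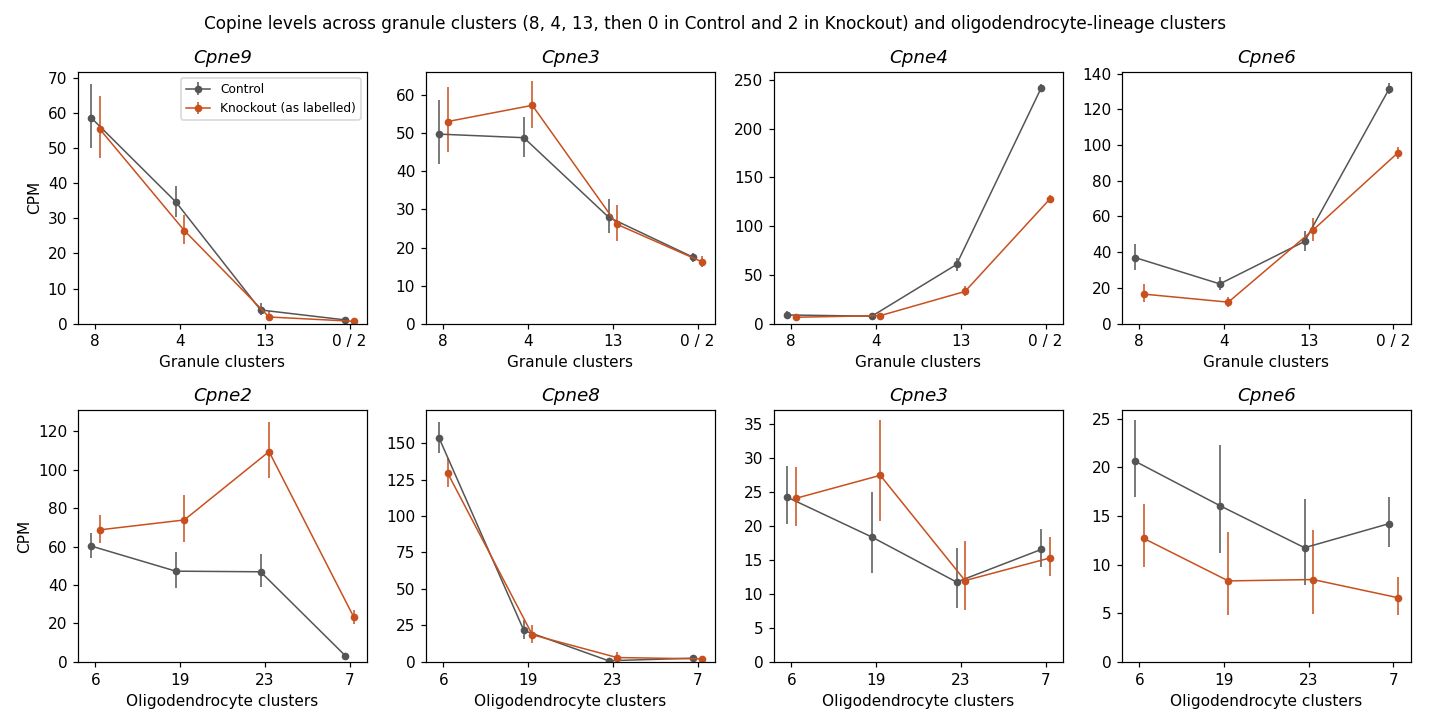
Levels (y axis, CPM) with 95% counting intervals in 4 granule clusters (upper row, ordered by falling Dcx in the Control; the last point is cluster 0 in the Control and cluster 2 in the library labelled Knockout) and in 4 oligodendrocyte-lineage clusters (lower row: precursor-like 6, committed precursor-like 19 and 23, oligodendrocyte-like 7). Cpne9 goes from 58.7 to 34.7 to 3.89 CPM over clusters 8, 4 and 13 in the Control, and Cpne2 stands highest in cluster 23 of the library labelled Knockout, at 110 CPM.

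Across granule clusters the copines exchanged places. Clusters 8, 4 and 13 are immature dentate granule-like, with Dcx, a marker of immature neurons, at 376, 284 and 151 CPM in the Control, against 24.7 CPM in cluster 0. Calb1, a marker of mature granule cells, was at 12.4, 7.51, 88.9 and 165 CPM in the same order. Cpne9 was at 58.7, 34.7 and 3.89 CPM in clusters 8, 4 and 13, and Cpne3 at 49.8, 48.8 and 28.0 CPM, so both were highest where Dcx was highest. Cpne4 went the other way, at 8.89, 7.66 and 60.7 CPM, before reaching 242 CPM in cluster 0. Cpne6 was at 37.0, 22.3, 46.0 and 132 CPM over the same clusters.

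Of immature granule clusters 13 and 4, the Cpne4 difference between libraries was present in cluster 13, where Cpne4 was higher. Cluster 13 had 343 and 157 UMIs, at 60.7 and 33.0 CPM, a log2 ratio of -0.88 (-1.16 to -0.60), whereas cluster 4, at 7.66 and 8.24 CPM, had a ratio of 0.11 (-0.48 to 0.69). No member passed the size rule over all immature dentate granule-like nuclei, where all 8 were measured and 0.393% of 9417 genes passed. Cpne5, far lower in CA1-like nuclei of the library labelled knockout, was at 12.3 and 12.6 CPM in this class, a log2 ratio of 0.04 (-0.27 to 0.34). Cpne9 was at 27.8 and 24.1 CPM, with an interval that includes 0.

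In oligodendrocyte-like nuclei Cpne2 was higher in the library labelled knockout. It had 28 UMIs in 1073 Control nuclei and 170 UMIs in 840 nuclei of the library labelled knockout, at 3.24 CPM (2.15 to 4.68) and 23.4 CPM (19.996 to 27.2), a log2 ratio of 2.83 (2.27 to 3.49). Of 4 measured members Cpne2 was past the rule upward and Cpne6 and Cpne7 downward, where 3.67% of 8139 genes passed, 2.47% upward and 1.2% downward. The share of nuclei with a Cpne2 UMI was 2.52% in the Control against 15.95% in the library labelled knockout, at median depths of 7776 and 8284 UMIs. Thinned to 2000 UMIs the shares were 0.471% (0.153% to 1.10%) and 4.36% (3.07% to 5.99%), with 11 and 15 nuclei left out. In microglia-like nuclei thinned the same way the shares were 1.40% and 1.36%, so the Control level in oligodendrocyte-like nuclei is not above that background and the level in the library labelled knockout is. With free RNA subtracted the log2 ratio was 5.93, a value that rests on the few Control UMIs left of the 28. The log2 ratio was 1.10 with doublets kept, and 2.01, 2.01 and 1.97 under the 3 clusterings that moved it.

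Along the oligodendrocyte lineage Cpne2 was high early and low late in the Control, at 60.3 CPM in precursor-like, 47.1 in committed precursor-like and 3.24 in oligodendrocyte-like nuclei. In the library labelled knockout the levels were 68.8, 91.6 and 23.4 CPM. In committed precursor-like nuclei Cpne2 had 223 and 371 UMIs, which gave a log2 ratio of 0.96 (0.72 to 1.21), just short of the rule. Cluster 19 of that class had 47.3 and 73.9 CPM, and cluster 23 had 46.9 and 110 CPM, a log2 ratio of 1.22 (0.90 to 1.56). Cpne8 dropped earlier in both libraries, from 153 and 130 CPM in precursor-like cluster 6 to 21.6 and 18.6 CPM in cluster 19.

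In glial classes Cpne6 and Cpne7 were near the level of microglia-like nuclei. In oligodendrocyte-like nuclei Cpne6 had 123 and 48 UMIs, which gave a log2 ratio of -1.10 (-1.62 to -0.61), and Cpne7 144 and 59 UMIs, a log2 ratio of -1.03 (-1.499 to -0.59). Per nucleus this was 0.115 and 0.0571 UMIs of Cpne6, while microglia-like nuclei had 0.113 and 0.0556, astrocyte-like nuclei 0.109 and 0.0517 and oligodendrocyte precursor-like nuclei 0.110 and 0.0598. Cpne7 per nucleus was 0.134 and 0.0702 UMIs in oligodendrocyte-like and 0.139 and 0.0827 in microglia-like nuclei. With free RNA subtracted the Cpne6 ratio in oligodendrocyte-like nuclei was -0.38, and for Cpne7 the subtraction left no value. In that class Cpne6 was past 2-fold in 10 of 14 alternatives and Cpne7 in 7 of 13. With doublets kept the ratios were -0.49 for Cpne6 and -0.44 for Cpne7. In committed precursor-like nuclei Cpne7 had 90 and 35 UMIs, which gave a log2 ratio of -1.12 (-1.74 to -0.56), and was the only 1 of 4 measured members past the rule, where 1.29% of 8324 genes passed, 0.264% downward. Per nucleus this was 0.156 and 0.0616 UMIs. The ratio was under 2-fold with doublets kept (-0.60), with copine genes allowed in the clustering (-0.74), after thinning (-0.94) and in male nuclei (-0.95), and it was -2.02 in female nuclei. Beyond the subtracted Cpne6 ratio of -0.38, the part of free RNA in the 3 glial ratios past the rule was not tested.

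In the inhibitory classes, which lie outside the Emx1 lineage, no member passed the size rule. In CGE inhibitory-like nuclei 7 members were measured and 0.25% of 8813 genes passed, and in MGE inhibitory-like nuclei, those with markers of the medial ganglionic eminence, 5 were measured and 0.0229% of 8747 genes passed. Cpne5 in CGE inhibitory-like nuclei was at 28.1 CPM (24.9 to 31.7) and 35.7 CPM (32.0 to 39.8), a log2 ratio of 0.34 (0.11 to 0.58) that was -0.34 in female and 0.38 in male nuclei. Most of it was in cluster 16, at 40.4 and 50.9 CPM. Cpne4 and Cpne8 in that class had log2 ratios of -0.09 and -0.08. Etv4, the check of the label, was at 2.25 and 9.94 CPM in CGE inhibitory-like nuclei.

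No member passed the rule in the remaining classes either. The share of measured genes that passed was 3.08% in subicular-like, 1.14% in deep-layer excitatory-like, 0.233% in astrocyte-like and 0.245% in oligodendrocyte precursor-like nuclei. It was 1.97% in microglia-like, 0.99% in radial glia-like, 0.425% in cycling progenitor-like and 1.68% in Cajal-Retzius-like nuclei. In the same order 6, 6, 5, 5, 3, 2, 1 and 4 of the 8 members were measured, and the others could not pass. Cpne7 in cycling progenitor-like nuclei, at 42.6 and 17.0 CPM from 49 and 17 UMIs, was under the minimum of 50 UMIs. In subicular-like nuclei Cpne4 was at 174 and 258 CPM, a log2 ratio of 0.57 (0.50 to 0.64), the same sign as in CA1-like nuclei. Cpne2 in astrocyte-like nuclei was at 80.6 and 90.2 CPM, a log2 ratio of 0.16 (0.01 to 0.31). Cpne3 in microglia-like nuclei was at 51.1 and 52.7 CPM. Over all compared classes in which it was measured, Cpne3 stayed between -0.11 and 0.42 on the log2 scale.

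**Figure D5:**
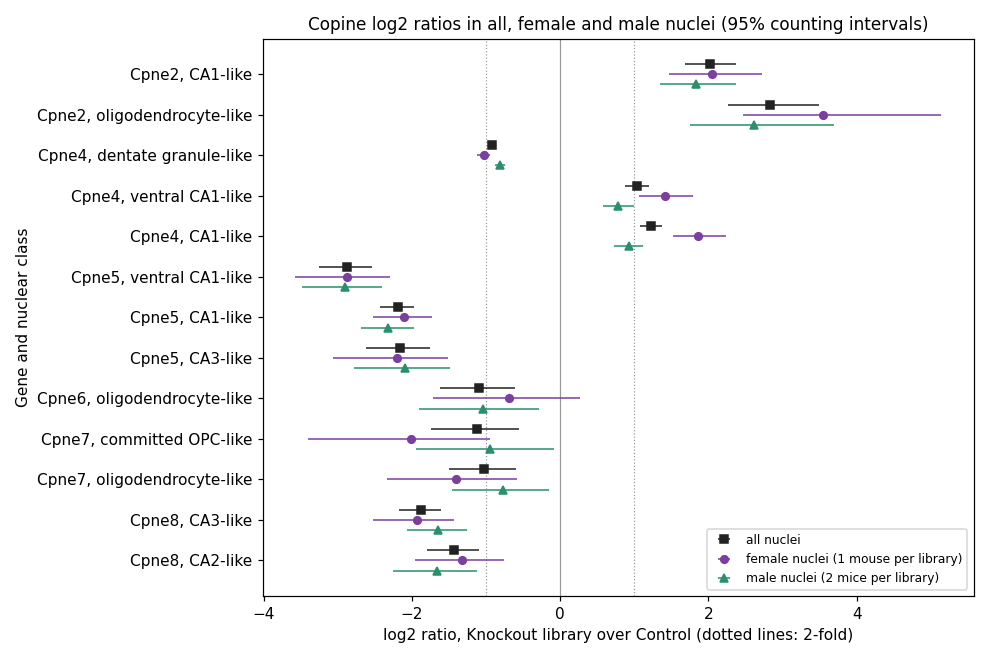
The log2 ratio (x axis, library labelled Knockout over Control) with 95% counting intervals for the 12 pairs of copine and class past the size rule and for Cpne4 in dentate granule-like nuclei (y axis), in all nuclei (squares), female nuclei (circles) and male nuclei (triangles). Cpne5 is near -2 or below in both sexes in 3 pyramidal classes, while Cpne4 in CA1-like nuclei is at 1.86 in female and 0.93 in male nuclei.

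Since 1 of the pooled mice was female and 2 were male, female and male nuclei come from different mice of a pool, though they are not replicates. Cpne5 had log2 ratios of -2.11 and -2.32 in female and male CA1-like nuclei, -2.87 and -2.90 in ventral CA1-like nuclei, and -2.20 and -2.09 in CA3-like nuclei. Cpne8 had -1.93 and -1.65 in CA3-like and -1.32 and -1.66 in CA2-like nuclei. Cpne2 had 2.05 and 1.84 in CA1-like nuclei and 3.55 and 2.61 in oligodendrocyte-like nuclei. Cpne4 was less even, at 1.86 and 0.93 in CA1-like, 1.41 and 0.79 in ventral CA1-like, and -1.03 and -0.81 in dentate granule-like nuclei. In male nuclei alone Cpne4 was thus past 2-fold in neither CA1 class.

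Within the library labelled knockout, copine levels were compared between nuclei with and without an Etv4 UMI. Of its CA1-like nuclei 1170 had an Etv4 UMI and 522 had none. Cpne5 was at 6.65 CPM (5.59 to 7.86) in the former and 5.28 CPM (3.83 to 7.08) in the latter, and both lay below the Control level of 28.7 CPM. Cpne8 in CA3-like nuclei was at 7.22 and 6.42 CPM, Cpne2 in oligodendrocyte-like nuclei at 26.1 and 22.5 CPM, and Cpne4 in dentate granule-like nuclei at 129 and 124 CPM, each with overlapping intervals. Cpne5 in CA3-like nuclei was at 4.00 CPM (2.72 to 5.67) with and 2.20 CPM (1.40 to 3.31) without an Etv4 UMI, and in ventral CA1-like nuclei at 3.74 and 3.46 CPM, also overlapping. A missing Etv4 UMI does not show that a nucleus lacks Etv4 transcripts. The CA1-like split also pools clusters 3 and 22, which differ in Cpne5. Its nuclei with an Etv4 UMI were deeper, at a median of 16802 against 15444 UMIs. The part of cluster and depth in these values was not tested.

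The copines rarely shared a pattern. Over 36 points, 18 classes in each of 2 libraries, the Pearson correlation of log2(CPM + 1) between members was highest for Cpne6 with Cpne7, at 0.71, and for Cpne4 with Cpne6, at 0.64, and lowest for Cpne2 with Cpne4, at -0.58. These points share 2 libraries and their depth, so the values describe and have no p. Among all genes with at least 10 CPM in some class, the closest to Cpne5 were Galntl6 (0.82), Gm16070 (0.81) and Nell1 (0.81). Closest to Cpne4 were Slco4c1 (0.92), Frmpd4 (0.91) and Panct2 (0.91), and to Cpne6 Plekhg5 (0.92), Stum (0.91) and Camkv (0.90). Cpne7 was closest to Sv2b (0.82), a synaptic vesicle protein gene, Gm37184 (0.81) and Slc9a2 (0.80), and Cpne8 to Tmem200a (0.82), Homer2 (0.77) and Ppp2r2b (0.76). For Cpne9 the closest were Mndal (0.75), Ifi203 (0.73) and Col12a1 (0.69), for Cpne2 A530083I20Rik (0.78), Nxn (0.77) and Mapk9 (0.77), and for Cpne3 Zfp90 (0.86), Slf2 (0.85) and Avl9 (0.85).

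Genes with C2 domains, annexins and copine partner genes were summarised from lists. The lists were chosen with earlier results of these data known, so their counts describe and test nothing. Of 42 genes with C2 domains, such as synaptotagmins and Unc13 priming factors, 28 were measured in CA1-like nuclei, of which 4 were past the size rule upward and 0 downward, where 4.03% of all measured genes passed. The list had a median log2 ratio of 0.04, against 0.09 for all genes. The 4 were Unc13c, a vesicle priming factor, at 69.0 and 297 CPM (log2 ratio 2.11), Mctp2 at 2.95 and 10.3 CPM (1.81), Rph3a, a Rab3 effector, at 4.98 and 12.1 CPM (1.28), and Mctp1 at 107 and 224 CPM (1.07). Unc13c is also among the leading genes of cluster 22. In ventral CA1-like nuclei, where 2.91% of all genes passed, 3 of 29 were higher and 0 lower, and the list median was -0.08 against 0.10 for all genes. The 3 were Unc13c at 17.8 and 125 CPM (2.81), Otof, the gene of otoferlin, at 5.66 and 19.8 CPM (1.80), and Rph3a at 8.90 and 26.6 CPM (1.58).

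In CA3-like nuclei, where 1.83% of all measured genes passed, 3 of 28 measured C2-domain genes were higher and 0 lower, and the list had a median log2 ratio of 0.01 against 0.06 for all genes. The 3 were Otof at 1.52 and 17.5 CPM (3.51), Dysf, the gene of dysferlin, at 6.34 and 19.3 CPM (1.61), and Myof, that of myoferlin, at 7.56 and 21.3 CPM (1.49). In dentate granule-like nuclei Otof was higher, at 7.49 and 44.1 CPM (2.56), and Syt10, a synaptotagmin gene, lower, at 67.9 and 31.3 CPM (-1.12), of 26 measured, where 3.43% of all genes passed. In oligodendrocyte-like nuclei Unc13a was higher, at 13.5 and 51.3 CPM (1.92). No member of a list of 12 annexins, which also bind membranes through calcium, or of 5 copine partner genes was past the size rule in any compared class, though at most 4 annexins were measured in a class. In deep-layer excitatory-like nuclei 4 of 30 measured C2-domain genes were higher and 0 lower, where 1.14% of all genes passed, and in subicular-like nuclei 2 of 31 were higher and 0 lower, where 3.08% did.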

How the data were processed

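Single-nucleus libraries made with a 10x Genomics 3′ chip were deposited by the authors as unnormalized UMI counts for each nucleus. The authors made them with Cell Ranger 8.0.1 on mm39, per the submitters' processing notes. The members and lists were chosen with earlier results of these data known.

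Nuclei with fewer than 500 genes or over 5% mitochondrial UMIs were left out, as were doublets called with Scrublet (scanpy 1.11.5, expected rate 0.1): 3195 Control nuclei (12.7%) and 2512 (10.9%) of the library labelled knockout. Both libraries were clustered together (3000 variable genes, 30 components, 15 neighbours, Leiden resolution 1, leidenalg 0.10.2), without copine, Xist, Tsix, Y-linked or mitochondrial genes and without batch correction. A cluster was named "-like" after the marker set, of 26, with the highest mean log2 fold, if at least 3 markers were raised and the mean was at least 0.5, a minimum taken from earlier results. It stayed unnamed where markers of another set led its 10 leading genes. UMIs were summed per class and library, and 0.5 UMI was added to each sum for log2 ratios. Nuclei with at least 2 Xist UMIs and none of 4 Y-linked genes were called female (6456 and 6284), and those with at least 1 Y-linked UMI and no Xist UMI male (9500 and 9120).

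All 8 members were named, with Cic and Etv4 as label checks, the 3 genes closest in pattern to each member, up to 4 list genes per class past 2-fold and the 2 neighbours on each side. The calculations were tested on simulated data. Alternatives covered scaling, offset, filters, thinning, sex, free RNA, clustering, doublets and the weighting of nuclei. Leaving cluster 22 out of CA1-like nuclei and adding cluster 27 to dentate granule-like nuclei were chosen after seeing the data. Promoters of Cpne2, Cpne4, Cpne5, Cpne8 and Cpne9 were matched by symbol in a RefSeq table, and no GRCm38 coordinate was joined to the mm39 counts. A result on 1 listed gene is not reported here.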

Additional observations from a re-analysis of the deposited data

Results flagged for a closer look

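Cpne4 went in opposite directions in different excitatory classes. Its log2 ratio was 1.22 in CA1-like nuclei and 1.03 in ventral CA1-like nuclei, and -0.92 in dentate granule-like nuclei, with counting intervals beyond 0.5 on either side of 0 and the same signs in female and male nuclei of all 3 classes. With 1 library per group the difference between classes was not tested. Beside it stands the make-up of the classes: cluster 22, in which Cpne4 was at 94.9 and 131 CPM, made up 9.81% of the CA1-like class in the Control against 20.4% in the library labelled knockout, and the granule class was split between clusters by library. Without cluster 22 the CA1-like ratio was 0.85, and with cluster 27 added the granule ratio was -0.87. Beyond these values, the part of class make-up in the result was not tested.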

How the results depend on the processing

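The 12 ratios past 2-fold kept their sign in 168 of 168 values under the alternatives, and 145 of these were past 2-fold. The total includes the Cpne6 and Cpne7 ratios of the oligodendrocyte classes; for both Cpne7 ratios the subtraction of free RNA gave no value and is not in it. Each group was 1 library, so leaving out a replicate was not possible, and the counting intervals are narrower than the error of the comparison. No paired analysis was possible because each group is 1 library and the labels give no replicate numbers. Class names rest on markers and clusters. The cause of the moves below was not tested. Depth limits Cpne2 in Control oligodendrocyte-like nuclei, with 28 UMIs, and Cpne5 in CA3-like nuclei of the library labelled knockout, with 54.

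Cpne5 in CA1-like nuclei was -2.73 after thinning to 2000 UMIs, -3.51 at Leiden resolution 2, -4.02 with genes past 2-fold left out of the clustering and -3.89 without cluster 22, and in ventral CA1-like nuclei -1.95 after thinning. At resolution 2 Cpne4 and Cpne2 in CA1-like nuclei were under 2-fold, at 0.70 and 0.91, and with genes past 2-fold left out of the clustering Cpne4 there was 0.72. Cpne8 in CA3-like nuclei was -1.44 and -1.37 at resolutions 0.5 and 2 and -1.41 with genes past 2-fold left out. Cpne2 in oligodendrocyte-like nuclei was 3.55 in female nuclei, 2.01 at resolutions 0.5 and 2, 1.97 with genes past 2-fold left out and 1.10 with doublets kept. It was 5.93 with free RNA subtracted, which leaves few Control UMIs.

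The count of members past the rule in dentate granule-like nuclei was 2 at a fold of 1.5 (Cpne4 and Cpne7) and 1 in female nuclei and at resolution 0.5 (Cpne4), against 0. At resolution 0.5 the class was 4299 Control and 114 nuclei of the library labelled knockout, since a cluster of 70 and 3247 nuclei stayed unnamed, and Cpne4, Cpne7 and Cpne6 were -1.02, -0.21 and -0.02. With doublets kept it was 4340 and 93 nuclei, with a cluster of 46 and 3210 unnamed, and fell under the minimum of 100 nuclei, so no value was given. It was 1 in CA1-like nuclei in male nuclei and at resolution 2 (Cpne5), against 3. In ventral CA1-like nuclei it was 1 with median-of-ratios scaling, in male nuclei and with doublets kept (Cpne5), against 2. In oligodendrocyte-like nuclei it was 1 in female nuclei and with doublets kept (Cpne2), against 3. The share of all measured genes that passed is given for the main setting only. Whether these counts of members are unusual under the changed settings was not tested. With doublets kept, 5 of the 8 members had the same highest Control class, and Cpne2, Cpne3 and Cpne5, whose leading classes overlap, changed theirs.

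Shares of nuclei with a Cpne5 UMI in the Control and the library labelled knockout, in that order, were 5.05% and 0.709% after thinning and 13.6% and 1.89% with at least 2 UMIs in CA1-like nuclei. They were 4.68% and 1.23%, and 13.96% and 0.943%, in ventral CA1-like nuclei, and 2.06% and 0.493%, and 7.37% and 0.739%, in CA3-like nuclei. Shares with a Cpne2 UMI in oligodendrocyte-like nuclei were 0.471% and 4.36%, and 0.0932% and 3.21%.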

Other observations

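Copine levels in some single clusters and small classes are given here as values. Unnamed cluster 33, with 86 and 84 nuclei and a median of 45024.5 UMIs, had Cpne5 at 19.5 and 5.24 CPM and Cpne8 at 82.1 and 47.1 CPM. Subicular-like cluster 30, with 97 and 148 nuclei, had Cpne5 at 58.5 CPM in the Control against 18.5 CPM in the library labelled knockout, from 78 and 48 UMIs. Mossy cell-like nuclei held Cpne4 at 1097 and 986 CPM and Cpne6 at 247 and 287 CPM. Cpne7 there was at 89.9 CPM (77.0 to 104) and 141 CPM (127 to 156).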
